A study of Mus musculus with 2 samples.

Results

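Ubiquitin-specific proteases (USP) and ubiquitin C-terminal hydrolases (UCH) are cysteine proteases that remove ubiquitin from proteins, and so reverse the work of ubiquitin ligases. Some spare their substrates from the proteasome, some return ubiquitin to the free pool, and others erase ubiquitin marks on histones or change how a protein is sorted or bound. A mature oocyte makes almost no new mRNA, so its deubiquitinases come from stored mRNA and protein, and the hydrolase UCHL1 is long known as an abundant protein of neurons and oocytes. The genes described here are those of the deposited table whose symbol starts with Usp and a digit, together with Uchl1, Uchl3, Uchl4, Uchl5 and Bap1, without pseudogenes and the unrelated Usp6nl. They number 62 of 36227 genes, of which 60 are annotated as protein coding and 2, Usp46os1 and Usp46os2, are transcripts of the strand opposite to Usp46.

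The slimming library came from females that were obese at 12 weeks in standard cages and then spent 4 weeks in enriched-environment cages. The control library came from females of the same history that stayed in normal cages for those 4 weeks, on a standard diet per the labels. All were ICR mice, an outbred strain, aged 16 weeks, and 9 naturally ovulated oocytes at metaphase II (3 from each of 3 mothers) were pooled and amplified as 1 library per group. Because each group is 1 pooled library, no difference below has a replicate check and no test of the groups was possible, so each difference describes these 2 libraries only.

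The slimming library held 20947962 counts and the control library 20242289. Levels are given as CPM, counts scaled to the library total, and a gene is called expressed at 10 CPM or more in at least 1 library. They are levels of RNA captured by oligo(dT) priming, and poly(A) tail length was not measured. Ratios are log2 of slimming over control after TMM scaling, and their 95% intervals cover counting error only. The defining oocyte genes were present, with all 10 of 10 listed markers detected in both libraries, led by Gdf9 and H1foo at 44674 and 42278 CPM in slimming oocytes, and at 45613 and 44923 CPM in control oocytes. Mos, the kinase of the metaphase II arrest, was the next in the list with 6590 CPM in slimming oocytes and 6673 CPM in control oocytes. The oocyte markers were not all level: the egg coat genes Zp3, Zp1 and Zp2, chosen after their values were seen, had log2 ratios of 1.03, 0.94 and 0.81, and Zp3 was the 1 listed marker past 2-fold, with 2450 CPM in slimming oocytes and 1172 CPM in control oocytes.

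Of the 62 genes, 33 were expressed, 13 lay between 1 and 10 CPM in their higher library, 8 had counts but stayed under 1 CPM, and 8 were blank in the table, which was taken as 0 counts. The filter could be passed through either library, so the 33 are not all members. Together the 62 genes held 103136 counts in slimming oocytes and 85534 in control oocytes, or 0.492% and 0.423% of all counts. Uchl1 alone supplied 43.4% of the family's counts in slimming oocytes and 37.2% in control oocytes. Without Uchl1 the family summed to 2789 CPM in slimming oocytes and 2652 CPM in control oocytes. The 8 most abundant genes, Uchl1, Usp28, Usp15, Usp30, Usp2, Usp46, Usp19 and Bap1, held 80.2% of the family's counts in slimming oocytes and 76.7% in control oocytes.

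**Figure D1:**
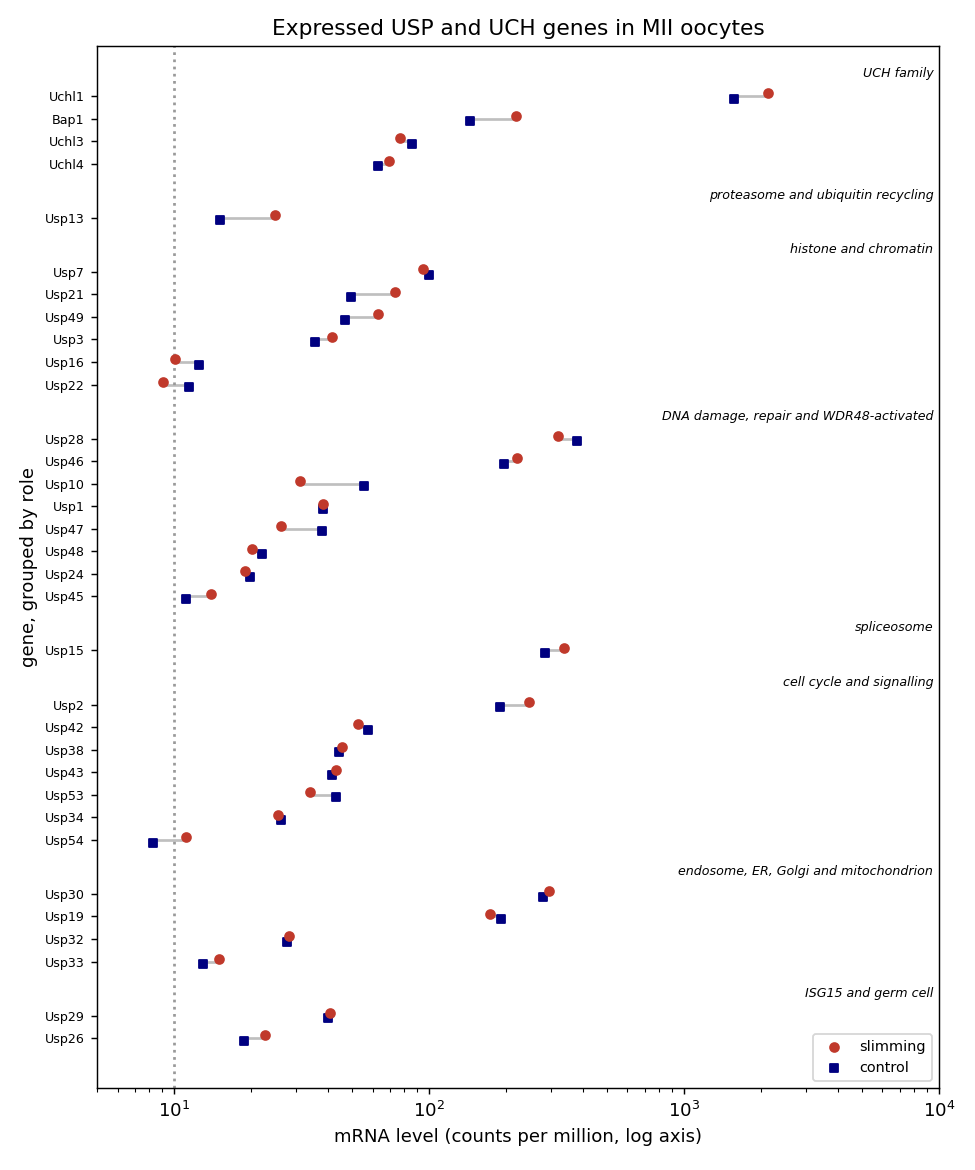
Level of each of the 33 expressed USP and UCH genes in slimming oocytes (red circles) and control oocytes (dark squares), in CPM on a log axis, grouped by role, with a dotted line at 10 CPM. Uchl1 stands apart at 2135 CPM in slimming oocytes and 1574 CPM in control oocytes, and within each gene the points of the 2 libraries lie close together compared with the range between genes.

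The typical member of the family differed little between slimming and control oocytes. None of the 33 expressed genes was 2-fold higher in slimming oocytes, where 2.73% of all 5714 expressed genes were, and none was 2-fold lower, where 1.94% were. With 33 genes and a background of that size, the count of 0 does not set the family apart. By sign, 17 ratios were above 0 and 16 below, where 2937 of all 5714 expressed genes were above and 2777 below. The family's median ratio was 0.01 (95% order-statistic interval -0.10 to 0.19), beside 0.02 for all expressed genes. In the family 21 of 33 genes (63.6%) were less than 1.25-fold apart, beside 58.5% of all expressed genes. The counting interval excluded a log2 ratio of 0 for 23 of 33 genes (69.7%), beside 72.9% of all expressed genes. In the authors' deposited table, 8 of the 33 were marked at a p-value of 0.001 as higher in slimming oocytes and 5 as lower, where 32.5% and 24.6% of all expressed genes were so marked, and that p-value compares reads of 2 libraries with no replicate behind it.

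**Figure D2:**
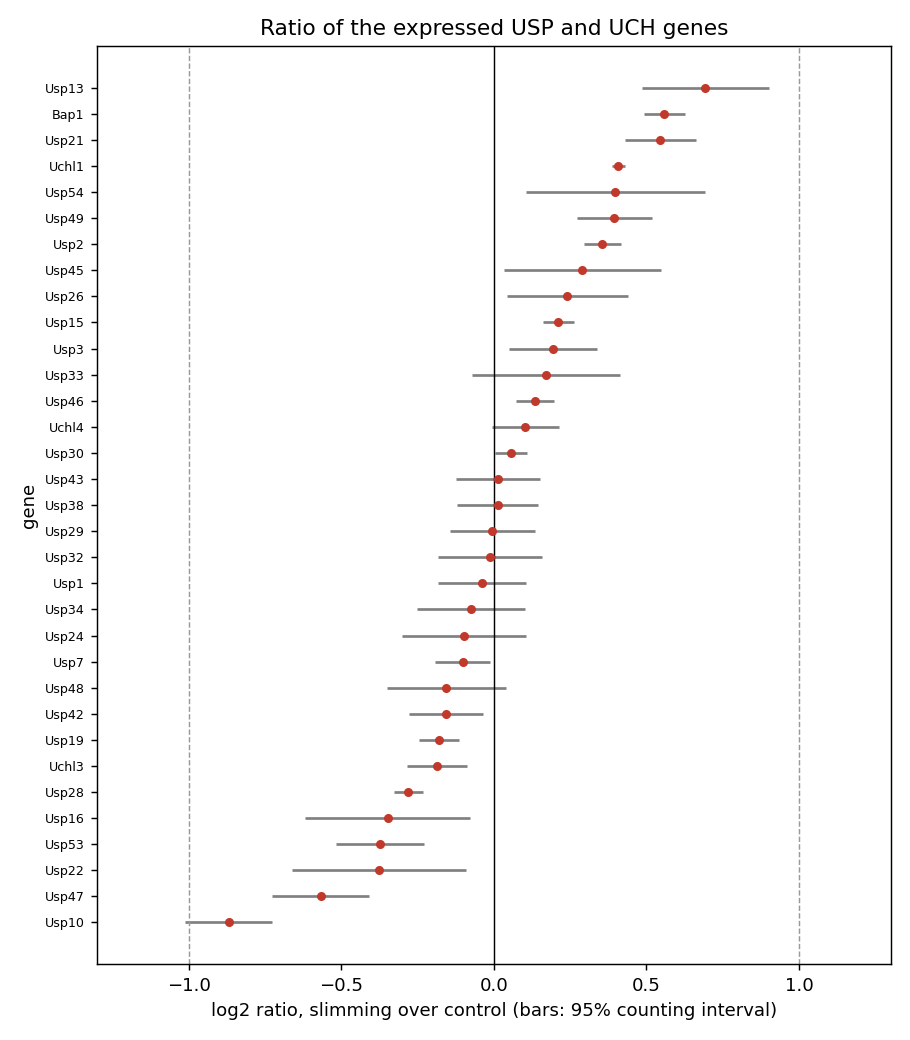
Log2 ratio of slimming over control for the 33 expressed USP and UCH genes, sorted, with 95% counting intervals as bars and dashed lines at 2-fold in each direction. Usp13 at 0.69 and Usp10 at -0.87 are the ends of the range, and every point lies within the 2-fold lines.

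The UCH hydrolases hold the most abundant member. Uchl1 (ENSMUSG00000029223, chromosome 5), which binds ubiquitin and cuts small adducts from its C-terminus, had 44715 counts or 2135 CPM in slimming oocytes, against 31859 counts or 1574 CPM in control oocytes. That placed it at rank 46 by count in slimming oocytes and rank 74 in control oocytes. It was 1.33-fold higher in slimming oocytes, a log2 ratio of 0.41 (interval 0.39 to 0.43). Of the 136 genes with a mean of at least 1000 CPM, 13.2% were at least as far apart. Per kilobase of transcript, Uchl1 stood at 1814 CPM in slimming oocytes and 1337 CPM in control oocytes. Uchl3 was the next on that scale in each library, at 85.5 CPM per kilobase in slimming oocytes and 95.1 in control oocytes. How evenly reads cover a transcript in these oligo(dT)-primed libraries is not known, so values per kilobase are approximate. The opposite-strand gene Uchl1os, which overlaps 18.1% of the exonic bases of Uchl1, had 53 counts in slimming oocytes and 59 in control oocytes.

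Bap1 (ENSMUSG00000021901, chromosome 14), the nuclear hydrolase that removes ubiquitin from histone H2A with ASXL proteins, had 218 CPM in slimming oocytes and 145 CPM in control oocytes. It was 1.47-fold higher in slimming oocytes (log2 0.56, interval 0.49 to 0.63), and 10.3% of the 947 genes with a mean between 100 and 300 CPM were at least as far apart. Among its partner genes, Asxl2 was lower, with 31.1 CPM in slimming oocytes and 48.4 CPM in control oocytes (log2 -0.67, interval -0.81 to -0.52). Asxl3 was scarce and also lower, with 3 counts in slimming oocytes and 17 in control oocytes. Its log2 ratio was -2.40 with an interval that excluded 0, and 29.5% of genes with a mean under 1 CPM were at least as far apart. Asxl1 had a log2 ratio of -0.06 (interval -0.14 to 0.02). Hcfc1, Foxk1 and Foxk2, chromatin partners of BAP1, had ratios of 0.08, 0.06 and 0.07, each with an interval that included 0. Uchl5, the hydrolase bound to the proteasome through ADRM1, had 15 counts in slimming oocytes and 57 in control oocytes (log2 -1.97, interval -2.93 to -1.17), and 12.5% of the 2321 genes with a mean between 1 and 3 CPM were at least as far apart. Its docking partner Adrm1 was also scarce, at 3.48 CPM in slimming oocytes and 5.09 CPM in control oocytes.

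Uchl3 (ENSMUSG00000022111, chromosome 14) and Uchl4 (ENSMUSG00000035337, chromosome 9) encode closely related hydrolases, and UCHL3 also acts on the ubiquitin-like protein NEDD8. Their coding sequences in GENCODE vM21 (GRCm38) match at 672 of 690 aligned bases (97.4%), and the first 120 coding bases are shown because short reads from such stretches can be counted for either gene. Capitals mark the 4 positions at which they differ.
Uchl3: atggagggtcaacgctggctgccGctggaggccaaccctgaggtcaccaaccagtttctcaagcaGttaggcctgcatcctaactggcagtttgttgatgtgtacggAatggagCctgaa
Uchl4: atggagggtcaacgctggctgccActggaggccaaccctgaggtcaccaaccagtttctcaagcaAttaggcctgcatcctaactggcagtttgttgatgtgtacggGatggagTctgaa
Of the 872 windows of 32 bases in the Uchl3 transcript, 45.4% occur unchanged in a Uchl4 transcript. How reads matching both were counted is not given in the sources used here, so the split between the genes is uncertain. As deposited, Uchl3 had 1617 counts in slimming oocytes and 1739 in control oocytes (log2 -0.19, interval -0.28 to -0.09). Uchl4 had 1453 counts in slimming oocytes and 1279 in control oocytes (log2 0.10, interval -0.01 to 0.21). Summed as 1 gene, the pair had 3070 counts in slimming oocytes and 3018 in control oocytes, a log2 ratio of -0.06 with an interval of -0.13 to 0.02 that includes 0.

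Genes of enzymes that recycle ubiquitin at the proteasome or from free chains were low in these oligo(dT)-primed libraries. Usp14, which trims chains on the proteasome, had 36 counts in slimming oocytes and 57 in control oocytes. Usp5, which takes apart unanchored chains, had 14 and 12 counts in slimming and control oocytes. Its close relative Usp13 was the gene of these 3 that was expressed, with 521 counts or 24.9 CPM in slimming oocytes, against 305 counts or 15.1 CPM in control oocytes. Usp13 had the highest ratio of the 33 expressed members at 0.69 (interval 0.49 to 0.90), or 1.61-fold, and 15.5% of the 2123 genes with a mean between 10 and 30 CPM were at least as far apart. Exons of Thoc1 on the opposite strand, a gene with 281 counts in slimming oocytes and 286 in control oocytes, overlap 26.0% of the exonic bases of Usp14, so its few counts are uncertain.

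Among the enzymes that act on histones and chromatin, 6 of 11 were expressed, with 3 ratios above 0 and 3 below. Usp7, which stabilises MDM2 and the methylation proteins DNMT1 and UHRF1, was the most abundant and nearly level, with 1991 counts in slimming oocytes and 2022 in control oocytes (log2 -0.10, interval -0.19 to -0.01). Usp21, a histone H2A deubiquitinase, had 73.8 CPM in slimming oocytes against 49.5 CPM in control oocytes, 1.46-fold higher (log2 0.54, interval 0.43 to 0.66). Of the 1739 genes with a mean between 30 and 100 CPM, 15.4% were at least as far apart as Usp21. Usp3, another H2A enzyme, stood at 41.8 CPM in slimming oocytes and 35.7 CPM in control oocytes (log2 0.19). Usp16, which clears ubiquitin from H2A at mitosis, had 10.1 CPM in slimming oocytes and 12.5 CPM in control oocytes (log2 -0.35). Exons of Cct8 on the opposite strand overlap 2.03% of the exonic bases of Usp16. Cct8 had 3653 counts in slimming oocytes and 4025 in control oocytes, and the use of strand in counting is not given.

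Usp49, a histone H2B deubiquitinase, had 62.9 CPM in slimming oocytes and 46.8 CPM in control oocytes (log2 0.40, interval 0.27 to 0.52). It shares 51.2% of its exonic bases with Gm20517 on the same strand, a gene with 12788 counts in slimming oocytes and 12524 in control oocytes, beside 1317 and 947 for Usp49. Its count therefore cannot be read as Usp49 alone.

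Usp22, the deubiquitinase of the SAGA coactivator complex, and its relatives Usp27x and Usp51 were each lower in slimming oocytes. Usp22 had 189 counts in slimming oocytes and 232 in control oocytes (log2 -0.38, interval -0.66 to -0.09). Of 2123 genes with a mean between 10 and 30 CPM, 41.2% were at least as far apart as Usp22. Usp51 had 81 counts in slimming oocytes and 117 in control oocytes (log2 -0.61, interval -1.04 to -0.19). Of 2530 genes with a mean between 3 and 10 CPM, 37.9% were at least as far apart as Usp51. Usp27x had 49 counts in slimming oocytes and 131 in control oocytes, a log2 ratio of -1.49 (interval -2.00 to -1.02). At a mean between 3 and 10 CPM, the level of Usp27x, 7.51% of 2530 genes were 2-fold lower or beyond, and 8.77% were 2-fold higher or beyond, in slimming oocytes, and 6.09% were at least as far apart as Usp27x in either direction. Of the adaptor genes of the SAGA module, Eny2 had 129 CPM in slimming oocytes and 135 CPM in control oocytes, Atxn7 had 5.68 and 6.92 CPM in slimming and control oocytes, and Atxn7l3 had 1 count in slimming oocytes and 0 in control oocytes. The nucleolar enzyme Usp36 was level, with 177 counts in slimming oocytes and 171 in control oocytes. Usp11 had 18 counts in slimming oocytes and 34 in control oocytes, and Usp44, which acts on CDC20 in the spindle checkpoint, was blank.

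The group of DNA damage and repair, joined with the enzymes activated by WDR48, had the most expressed genes, 8 of 9. Of these 8, 2 had ratios above 0 and 6 below, where 2937 of all 5714 expressed genes were above and 2777 below. Among the 6, the intervals of Usp1, Usp24 and Usp48 included 0. Usp28, a partner of 53BP1 that also spares MYC from degradation, was the most abundant USP gene of the control library, with 319 CPM in slimming oocytes and 380 CPM in control oocytes (log2 -0.28, interval -0.33 to -0.23). Usp10 (ENSMUSG00000031826, chromosome 8), which deubiquitinates p53 and binds the stress granule proteins G3BP1 and G3BP2, had 650 counts or 31.0 CPM in slimming oocytes, against 1123 counts or 55.5 CPM in control oocytes. That is 1.83-fold lower (log2 -0.87, interval -1.01 to -0.73), the lowest ratio of the expressed family members, and 3.74% of the 1739 genes with a mean between 30 and 100 CPM were at least as far apart. The partner genes G3bp2 and G3bp1, named after their values were seen, were also lower in slimming oocytes. G3bp2 had 111 CPM in slimming oocytes and 181 CPM in control oocytes (log2 -0.73, interval -0.81 to -0.66). G3bp1 had 33.1 and 43.3 CPM in slimming and control oocytes (log2 -0.42, interval -0.56 to -0.27). Of genes at their levels, 4.75% were at least as far apart as G3bp2 and 25.6% as G3bp1. A link with Usp10 was not tested.

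Usp47, which acts on DNA polymerase beta, was 1.48-fold lower, with 26.3 CPM in slimming oocytes and 38.1 CPM in control oocytes (log2 -0.57, interval -0.73 to -0.41). Of 1739 genes at that level, 14.1% were at least as far apart. Usp1, which deubiquitinates FANCD2 and PCNA, was level at 38.2 CPM in slimming oocytes and 38.4 CPM in control oocytes. Usp24 had 19.0 CPM in slimming oocytes and 19.9 CPM in control oocytes, and Usp48 had 20.3 and 22.1 CPM. Their log2 ratios were -0.10 and -0.16, each with an interval that included 0. Usp45, which acts on the ERCC1 nuclease, had 13.9 CPM in slimming oocytes and 11.1 CPM in control oocytes (log2 0.29, interval 0.03 to 0.55).

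USP1, USP12 and USP46 are switched on by the same cofactor, WDR48. Usp46 was abundant, with 221 CPM in slimming oocytes and 197 CPM in control oocytes (log2 0.14, interval 0.07 to 0.20), whereas its close paralogue Usp12 had 1 count in slimming oocytes and 12 in control oocytes. The cofactor Wdr48 had 5 counts in slimming oocytes and 7 in control oocytes, and the second cofactor Wdr20 had 59.9 CPM and 60.9 CPM in slimming and control oocytes. Usp46os2, transcribed opposite to Usp46, had 16 counts in slimming oocytes and 103 in control oocytes (log2 -2.73, interval -3.63 to -2.00). Usp46os1 had 0 counts in slimming oocytes, which allows up to 0.143 CPM, and 8 counts in control oocytes. Exons of Usp46 overlap 29.8% of the exonic bases of Usp46os2, and the use of strand in counting is not given in the sources used here.

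Usp15 and Usp4 are paralogues that act on spliceosome proteins, and USP15 also on the TGF-beta pathway. Usp15 had 337 CPM in slimming oocytes and 285 CPM in control oocytes (log2 0.21, interval 0.16 to 0.26), the most abundant USP gene of the slimming library. Usp4 was scarce, with 78 counts in slimming oocytes and 47 in control oocytes (log2 0.64, interval 0.11 to 1.20). Usp39, a splicing factor with a USP fold, had 152 counts in slimming oocytes and 183 in control oocytes (log2 -0.35).

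Of 14 genes placed with the cell cycle and signalling, 7 were expressed. Usp2, a clock-controlled enzyme that stabilises cyclin D1, led with 247 CPM in slimming oocytes and 189 CPM in control oocytes, 1.28-fold higher (log2 0.35, interval 0.29 to 0.42). Usp42, Usp38, Usp43 and Usp34 lay between log2 -0.16 and 0.01, and USP34 acts in Wnt signalling through axin. Usp42, which acts on p53, had 52.7 CPM in slimming oocytes and 57.6 CPM in control oocytes, and Usp38 had 45.7 and 44.4 CPM. Usp43 had 43.1 CPM in slimming oocytes and 41.8 CPM in control oocytes, and Usp34 had 25.5 and 26.3 CPM. Usp53, a family member found at tight junctions, had 34.0 CPM in slimming oocytes and 43.1 CPM in control oocytes (log2 -0.37, interval -0.52 to -0.23). Its relative Usp54 had 11.2 CPM in slimming oocytes and 8.30 CPM in control oocytes (log2 0.40, interval 0.11 to 0.69). Usp9x, which is widely expressed and known from preimplantation embryos, had 86 counts in slimming oocytes and 67 in control oocytes. Its Y-linked homologue Usp9y had 0 counts in slimming oocytes and 1 in control oocytes. Usp25, Usp31, Usp37 and Usp40 each had at most 7 counts in either library, and Usp35 was blank.

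Enzymes of membranes and organelles were close to level, and the ratios of the 4 expressed genes ran from -0.18 to 0.17. Usp30, anchored in the outer mitochondrial membrane where it opposes mitophagy, had 296 CPM in slimming oocytes and 279 CPM in control oocytes (log2 0.06, interval 0.004 to 0.11). Usp19, anchored in the endoplasmic reticulum, had 174 CPM in slimming oocytes and 192 CPM in control oocytes (log2 -0.18, interval -0.25 to -0.11). Usp32 had 28.1 and 27.8 CPM in slimming and control oocytes, and Usp33 had 14.9 and 13.0 CPM. Usp20, the relative of Usp33, had 90 counts in slimming oocytes and 88 in control oocytes. Usp8, the endosomal enzyme that sorts growth factor receptors, had 55 counts in slimming oocytes and 44 in control oocytes, and Usp50 had 25 and 15 counts.

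In the last group, Usp29, an imprinted gene expressed from the paternal allele in mouse, had 40.9 CPM in slimming oocytes and 40.2 CPM in control oocytes. Its log2 ratio was -0.005 with TMM scaling and above 0 with scaling by total count or by size factors, so its sign is not settled, and the same holds for Usp32 at -0.01. Usp26, an X-linked gene of germ cells, had 22.7 CPM in slimming oocytes and 18.8 CPM in control oocytes (log2 0.24, interval 0.04 to 0.44). Usp18, which removes the ubiquitin-like protein ISG15, was blank in the table. All 5 Usp17l genes on chromosome 7 were blank too.

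**Figure D3:**
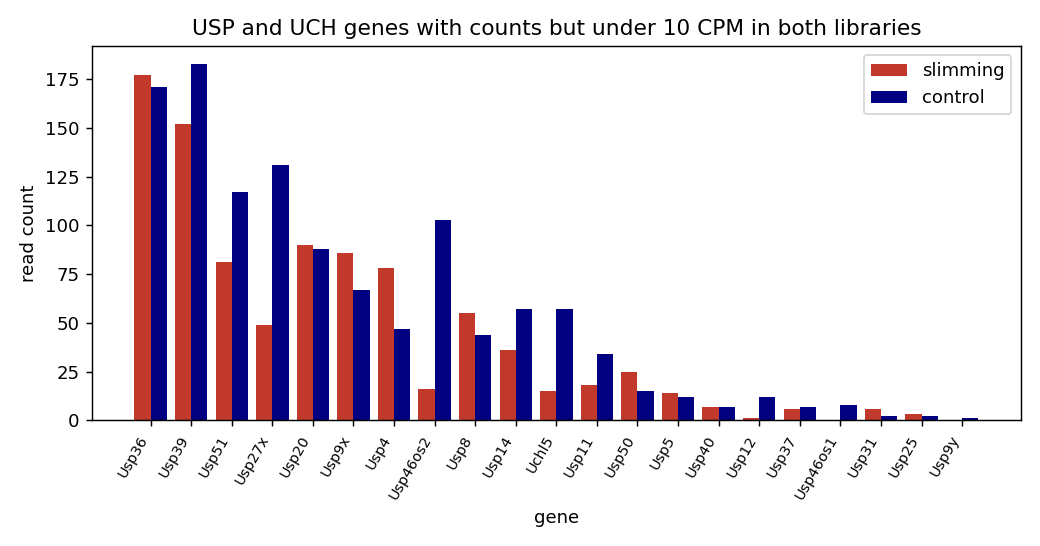
Read counts in slimming oocytes (red) and control oocytes (dark) of the 21 USP and UCH genes that had counts but stayed under 10 CPM in both. Usp27x with 49 against 131 counts, Usp46os2 with 16 against 103 and Uchl5 with 15 against 57 show the widest gaps among genes with at least 50 counts in all.

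The 21 genes with counts but under 10 CPM summed to 915 counts in slimming oocytes and 1165 in control oocytes. Of the 12 with at least 50 counts in the 2 libraries together, 3 had ratios above 0 and 9 below. The intervals of Usp36 and Usp20, with ratios below 0, and of Usp9x and Usp8, with ratios above 0, included 0. The split by sign of all genes at these levels was not computed, so the split of the 12 is not read as a trait of the family. At least 2-fold lower in slimming oocytes were 3 of the 12 (Usp27x, Usp46os2 and Uchl5). At a mean between 1 and 3 CPM, where Usp46os2 and Uchl5 lie, 18.3% of 2321 genes were 2-fold lower or beyond, and 18.4% were 2-fold higher or beyond. In either direction, 6.16% of these genes were at least as far apart as Usp46os2, and 12.5% at least as far apart as Uchl5. Genes listed as markers of other cells also differed between the libraries at these levels. Over all 36227 genes, 15831 were detected in slimming oocytes and 16466 in control oocytes. Of 15 cumulus and granulosa markers, 5 were detected in slimming oocytes and 9 in control oocytes. Among the 15, 6 (Fshr, Foxl2 and Amh among them) were at 0 in both. The list summed to 533 CPM in slimming oocytes and 532 CPM in control oocytes, nearly all from Serpine2 at 491 and 475 CPM, followed by Cyp19a1 and Nr5a2. Of the 7 markers with at least 10 counts over both libraries, 4 were lower by 2-fold or more in slimming oocytes and 0 were higher by as much. Those 4 had means under 3 CPM. Of all genes with a mean under 1 CPM, 39.8% were 2-fold lower or beyond and 31.3% were 2-fold higher or beyond. Between 1 and 3 CPM, 18.3% were lower and 18.4% higher by as much. Inha and Hsd3b1, chosen after their values were seen, had 0 counts and 1 count in slimming oocytes, against 63 and 72 counts in control oocytes. Of 13 immune markers, 4 were detected in slimming oocytes and 11 in control oocytes, with sums of 25.8 and 43.1 CPM, and Cd3e and Cd74 were at 0 in both. The most abundant were H2-Aa at 17.9 and 27.2 CPM, Cd68 at 3.77 and 5.09 CPM and Laptm5 at 4.11 and 3.71 CPM in slimming and control oocytes. The gap was wider for Fcer1g and Tyrobp, also chosen after their values were seen, which had 0 counts each in slimming oocytes, against 62 and 57 counts in control oocytes. The oviduct list, carried by Cdh1, came to 246 CPM in slimming and in control oocytes, and 5 of its 9 genes had a count in slimming oocytes and 8 in control oocytes. After Cdh1 came Tppp3, with 93 counts in slimming oocytes and 210 in control oocytes, and Dnah5, with 26 and 15. Sperm and spermatid markers came to 560 CPM in slimming oocytes and 648 CPM in control oocytes, mostly from Odf2, followed by Prm2 and Oaz3. Prm1, Tnp1, Tnp2 and Akap4 were at 0 in both. The cumulus, immune, oviduct and sperm sums rest mostly on Serpine2, H2-Aa, Cdh1 and Odf2, and whether the oocyte itself made their RNA was not tested. Those sums are therefore not a measure of other cells. Markers of the 2-cell embryo summed to 13.8 and 12.1 CPM in slimming and control oocytes, with Arg2, Sp110 and Pramef25 first and the 5 Usp17l genes, which are also in that list, at 0. The part of other cells in the low counts of Usp27x, Usp46os2 and Uchl5 was not tested, and in pooled samples fewer cells of a type and less RNA per cell cannot be told apart.

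Transcript length moved with the ratio across all expressed genes. The median log2 ratio of all expressed genes was 0.18 in the shortest of 5 equal groups by transcript length and -0.09 in the longest. The family's transcripts were long, with a median of 4738 bases among the 33 expressed genes, beside 3161 bases for all expressed genes. In the longest group, 13 family members had a median ratio of -0.005 where all genes had -0.09, and in the next longest 12 members had a median of 0.01 where all genes had -0.04. Over the 33 genes, which are not replicates and share the 2 libraries, Spearman's rho between ratio and length was 0.02, beside -0.22 over 5595 expressed genes with a length. With the length trend removed, the ratio of Uchl1, which has a short transcript of 1177 bases, was 0.21, that of Uchl3 was -0.44 and that of Uchl4 was -0.10.

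**Figure D4:**
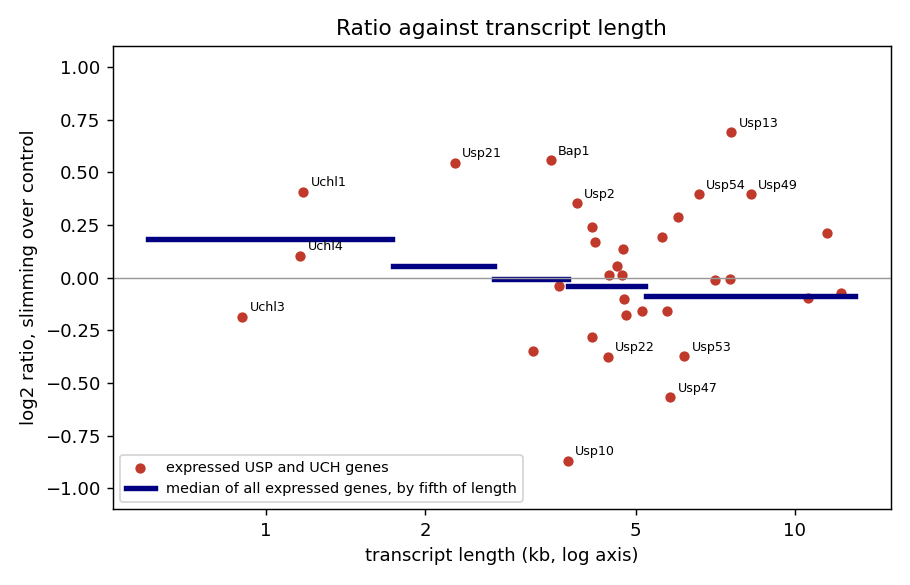
Log2 ratio of slimming over control against transcript length in kilobases, on a log axis, for the 33 expressed USP and UCH genes (red), with bars for the median of all expressed genes in each of 5 length groups (dark, ends drawn within the axis). The bars step down from 0.18 in the shortest group to -0.09 in the longest, and the family's points spread on both sides of 0 above 3 kilobases.

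Genes of other deubiquitinase families, the ovarian tumour, Josephin, JAMM, MINDY and ZUP1 classes, were taken as a list together with Cyld, Pan2 and Uspl1. Listing was by protein family, so not every gene in it need encode an enzyme that acts on ubiquitin. Of its 33 genes in the table, 17 were expressed, 10 with ratios above 0 and 7 below, and their median was 0.05 (interval -0.24 to 0.31). Josd2, a small enzyme of the Josephin class, was the 1 gene at least 2-fold higher, or 5.88% of the 17 beside the background of 2.73%, with 519 counts or 24.8 CPM in slimming oocytes, against 179 counts or 8.84 CPM in control oocytes (log2 1.45, interval 1.21 to 1.71). None was 2-fold lower. The next ratios by size were those of Cyld at 0.60 and Josd1 at 0.50, and Cyld, which cuts linear and lysine-linked chains in NF-kappa-B signalling, had 25.8 CPM in slimming oocytes and 16.7 CPM in control oocytes. The list of 19 cofactor genes of USP and UCH enzymes held 11 expressed genes, 4 above 0 and 7 below, with a median of -0.06 (interval -0.67 to 0.08) and none 2-fold apart.

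Sequence shared with other genes bears on several of these values, and 15 of the 33 expressed genes overlap an exon of another annotated gene. Of the 33 expressed genes, 10 shared at least 10% of their 32-base windows with a transcript of another gene on either strand, namely Uchl1, Uchl3, Uchl4, Usp1, Usp29, Usp33, Usp34, Usp38, Usp43 and Usp49. For Usp1 the match was a copy named Gm5841, which holds 32.6% of its windows, and for Usp29 it was Zim3 on the opposite strand, at 33.6%. For Usp33 it was the opposite-strand transcript Gm43857, at 34.2%.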

How the data were processed

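Counts per gene from 1 slimming and 1 control library were analysed. Per the labels' protocols, cDNA primed with an oligo(dT) stretch of 24 bases was amplified for 18 and then 14 cycles and sequenced on a SOLiD 4 instrument. Amplified reads without molecular identifiers are not independent molecules. The submitters' processing notes name mm9 as the build. The aligner and counting rules are not stated in those sources. The authors deposited raw read counts, a log2 ratio, and a p-value with q-values that compare the 2 libraries, per the file headers. The score column, a z-score computed by the authors, compares the same libraries per the file headers. Of these, the counts and the authors' marks at a p-value of 0.001 are reported. Blank entries (18210 of 36227 genes) were read as no count.

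Symbols, transcript lengths (the longest protein-coding transcript of the basic set), exon overlaps and sequences came from GENCODE vM21, a GRCm38 annotation matched by Ensembl identifier; 16913 of 18017 genes with counts had a symbol. No coordinates are given. Scaling used TMM (edgeR 4.0.16, R 4.3.3), with factors of 1.01 for the slimming and 0.989 for the control library. The ratio used 0.5 added to each count, and its interval is the exact Clopper-Pearson interval. A count of 0 allows up to 3 counts. The intervals and the 2-fold rule were tested on simulated data. Other steps used pandas 2.3.3, numpy 2.4.6, scipy 1.17.1, statsmodels 0.14.6, biopython 1.88 and matplotlib 3.10.9 under Python 3.11.15.

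No p-value was computed. Members, gene lists and roles were chosen with earlier results of these data known. Every expressed member was named with values, as were lower members with at least 50 counts in all. The 2 pathway lists were other deubiquitinase families and cofactors. From them, expressed genes at least 2-fold apart were named, or else the 3 with the largest ratios. Of each set of markers, the 3 with the highest CPM were named. Further markers are given as chosen after their values were seen. Partner genes were named for the member they act with, after their values were seen. Alternatives were other scalings, an added count of 1, other filters, removal of the length trend and the sum of Uchl3 and Uchl4. An expressed gene's gap was also set beside all genes at the same mean CPM.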

Additional observations from a re-analysis of the deposited data

How the results depend on the processing

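No paired analysis was possible because each group is 1 library. The counts of 0 members 2-fold higher and 0 lower stood with scaling by total count, with median-of-ratios size factors, with 1 added to each count, at 30 CPM, with the length trend removed and with Uchl3 and Uchl4 summed. With a filter of 1 CPM, 46 members passed and 3 were at least 2-fold lower (Usp27x, Usp46os2 and Uchl5), where 8.96% of all genes passing that filter were. With every gene that had a count, 54 members passed, 1 (Usp31, with 6 and 2 counts in the slimming and control libraries) was 2-fold higher and 6 were lower, where 17.7% and 20.9% of all 18017 genes with a count were, since genes with a handful of counts enter. The median ratio of the members stayed between -0.03 and 0.06 under these alternatives, and the medians of the other lists stayed within their intervals. Usp29 and Usp32, at -0.005 and -0.01, changed sign with scaling by total count and with size factors. Each of these scalings moves every log2 ratio by the same amount. Removal of the length trend moves a ratio by an amount set by transcript length. With it, Uchl4, Usp29, Usp32, Usp34 and Usp24, with main ratios between -0.10 and 0.10, changed sign. Counting error limits the genes under 10 CPM most.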
